A study of Mus musculus with 13 samples.

Results

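The genes described here are 10 genes that mark blood vessels, their mural cells and their matrix: Cldn5, Pecam1, Flt1, Kdr and Cdh5 of endothelial cells, Pdgfrb and Rgs5 of pericytes and smooth muscle, and the collagen chains Col4a1, Col4a2 and Col1a1. They were chosen by symbol, and all 10 were found among the 55291 gene symbols counted in each library. Counts came from the CA1 region of entorhino-hippocampal slice cultures, prepared at postnatal day 4 to 5 from wildtype C57BL/6 mice of either sex and kept for at least 18 days in vitro. The growth notes also list the Thy1-eGFP-M line. Groups were 5 non-lesioned control cultures (2 male, 3 female by the column headings), 4 cultures after Schaffer collateral lesion (SCL; 1 male, 3 female), in which the CA3 input to CA1 was cut, and 4 cultures after entorhinal cortex lesion (ECL; 3 male, 1 female), in which the perforant path was cut. Each library held CA1 tissue of a single culture, taken 3 days after the lesion without the scar. A p-value therefore measures the spread between cultures, but only in part in the fit over every symbol described below. The titles and source labels call the tissue CA1, whereas the extraction notes name the dentate gyrus. Markers of CA1 neurons were present in all libraries, with a summed level of 272 to 481 CPM (normalized counts scaled to a library of common size). Markers of the dentate gyrus were not examined, so this level does not settle which label is right.

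Endothelial cells line the vessel wall. Claudin 5 (Cldn5) closes their tight junctions, VE-cadherin (Cdh5) their adherens junctions, and Pecam1 is an adhesion molecule at their contacts. VEGF-A, made in brain by astrocytes and neurons among others, signals in endothelium mainly through VEGF receptor 2 (Kdr), while VEGF receptor 1 (Flt1) binds VEGF-A tightly with weak signalling and also exists as a soluble form that captures the ligand. Pericytes are recruited through the PDGF-B receptor Pdgfrb and carry the G protein regulator Rgs5. Endothelium and pericytes share a basement membrane built on type IV collagen, whose common protomer joins Col4a1 with Col4a2, whereas Col1a1 encodes a chain of fibrillar type I collagen of fibroblasts. Slice cultures keep vessel cells but have no blood flow.

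Flt1 and Kdr, the pair of VEGF-A receptors that fell after the lesions, lie on the minus strand of chromosome 5. Flt1 spans chr5:147561604-147726011 and Kdr spans chr5:75932827-75978458 on GRCm38. Their promoters are shown because these were the members whose RNA changed in both lesion groups. RefSeq promoter sequence on GRCm38.p6 was held for 6 of the 10 genes (Cldn5, Flt1, Kdr, Rgs5, Col4a1 and Col4a2). The sequences below run 5′ to 3′ on the coding strand and end before the first transcribed base, at chr5:147726012-147726261 for Flt1 (250 bases) and chr5:75978459-75978705 for Kdr (247 bases). Capitals mark matches, on either strand, to the GC box GGGCGG, the ETS core GGAAG, the TATA box TATAAA and the cAMP response element TGACGTCA. The ETS core is the letter core bound by a factor family active in endothelium.
Flt1: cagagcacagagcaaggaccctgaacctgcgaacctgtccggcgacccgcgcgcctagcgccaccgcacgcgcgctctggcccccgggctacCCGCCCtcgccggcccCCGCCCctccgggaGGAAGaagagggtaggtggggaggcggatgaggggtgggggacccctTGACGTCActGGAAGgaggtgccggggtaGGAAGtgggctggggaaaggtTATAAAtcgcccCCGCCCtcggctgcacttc
Kdr: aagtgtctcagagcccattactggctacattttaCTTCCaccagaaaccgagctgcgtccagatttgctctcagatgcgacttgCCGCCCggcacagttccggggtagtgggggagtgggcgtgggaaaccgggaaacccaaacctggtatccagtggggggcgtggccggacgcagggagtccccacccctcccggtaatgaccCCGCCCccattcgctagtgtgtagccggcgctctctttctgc
Both windows held GC boxes (3 in Flt1, 2 in Kdr) and ETS cores (3 in Flt1, 1 in Kdr). Of 32536 mouse promoter windows of 250 bases, 33.0% held a GC box and 64.1% an ETS core, so neither match sets these genes apart. Flt1 alone of the 6 held the TATA box (12.3% of all windows) and the cAMP response element (1.56%). The core of the hypoxia response element, ACGTG, was in none of the 6 windows and in 16.7% of all. These are matches of letters and carry no information on binding. The TATA box and cAMP response element were looked for after the Flt1 window had been read.

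In non-lesioned controls the pericyte gene Rgs5 was the most abundant of the 10, and the endothelial junction genes were the least abundant, close to the limit of counting. Per kilobase (kb) of exon, Rgs5 was highest with 3.72 ± 0.863 CPM per kb (SD, n = 5), and all 5 controls had more Rgs5 than Flt1, which had 1.51 ± 0.261 CPM per kb. Flt1, Pdgfrb (1.33 ± 0.291), Col4a2 (1.11 ± 0.272) and Col4a1 (1.01 ± 0.168 CPM per kb) followed in ranges that overlapped from each gene to the next. Kdr stood lower at 0.452 ± 0.225 CPM per kb and was under Col4a1 in all 5 controls. The remaining levels, again with overlapping neighbours, were 0.295 ± 0.187 CPM per kb for Col1a1, 0.215 ± 0.124 for Cldn5, 0.189 ± 0.11 for Cdh5 and 0.134 ± 0.0629 for Pecam1. Among 23640 symbols with a count in every control, Rgs5 ranked at the 62.6th percentile per kb and Pecam1 at the 4.12th. Other pericyte and smooth muscle genes differed widely in controls. Mcam (3.67 CPM per kb) and Foxc1 (3.61) were near Rgs5. Vtn (0.68), Abcc9 (0.158) and Kcnj8 (0.114 CPM per kb) were lower, and Higd1b had 0 counts. Which cells held the RNA of Rgs5 and Flt1 was not tested.

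**Figure D1:**
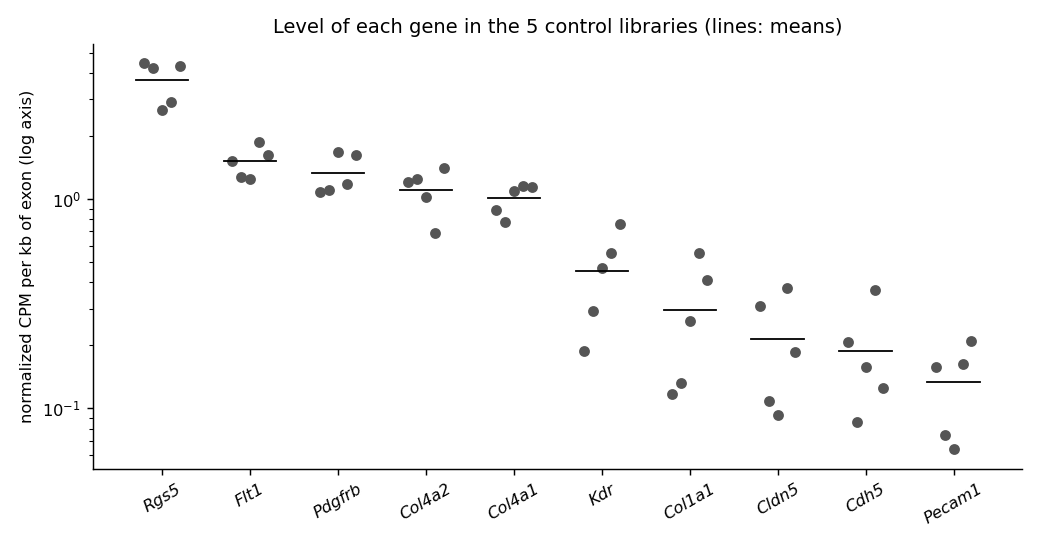
Normalized CPM per kb of exon (log axis) of the 10 genes in the 5 control libraries, one point per library, with the mean as a line and genes in falling order. Rgs5 is above every other gene, and Cldn5, Cdh5 and Pecam1 lie at the bottom with means of 0.215, 0.189 and 0.134 CPM per kb.

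Counting sets a limit on the junction genes. Library totals ran from 14371152 to 56786613 counts, with the lowest in a control. Even numbers made up 63.0% to 74.3% of low values (1 to 20) per library, as can occur when both mates of a read pair are counted. The number of molecules behind a low count may therefore be smaller than the count, which was not tested. Cldn5 had 0 to 22 counts per library, Pecam1 4 to 23, Cdh5 0 to 30, Col1a1 2 to 68 and Kdr 15 to 105. Flt1, Pdgfrb, Rgs5, Col4a1 and Col4a2 had at least 85 counts everywhere. The main test (edgeR quasi-likelihood with Benjamini-Hochberg adjustment) was run on genes whose mean normalized count reached 150, which kept 5 members after SCL and, since Col4a1 missed the minimum, 4 after ECL. The other members are given from a fit over every symbol with a count, named as such. In it a gene's own spread between cultures weighs less, and the SE is drawn towards one shared by all symbols. After ECL the SE of Rgs5 was 0.38 in the main test and 0.23 there, and that of Flt1 was 0.21 and 0.25. That fit is scaled over all symbols, which raises the median log2 fold change of the genes in the main test by 0.201, to 0.213, after SCL and by 0.188, to 0.182, after ECL. Over all symbols, most of them with few counts, its median was -0.402 after SCL and -0.486 after ECL.

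Of the tested members, 1 of 5 was called lower and none higher after SCL, and 1 of 4 lower and none higher after ECL. Among all 11438 genes tested after SCL, 24.9% were called and 11.5% were called lower. Among the 11212 tested after ECL, 27.8% were called and 12.5% were called lower. The gene called was Flt1 in both comparisons. In the fit over every symbol, Kdr also passed after each lesion. That fit called 11.2% of 48069 symbols after SCL, 4.62% being lower, and 16.8% of 47784 after ECL, 9.59% being lower and 7.23% higher. No other member passed in these fits except Rgs5 and Col4a2 after ECL in the fit over every symbol, described with those genes. Both comparisons share the 5 controls and are not independent.

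**Figure D2:**
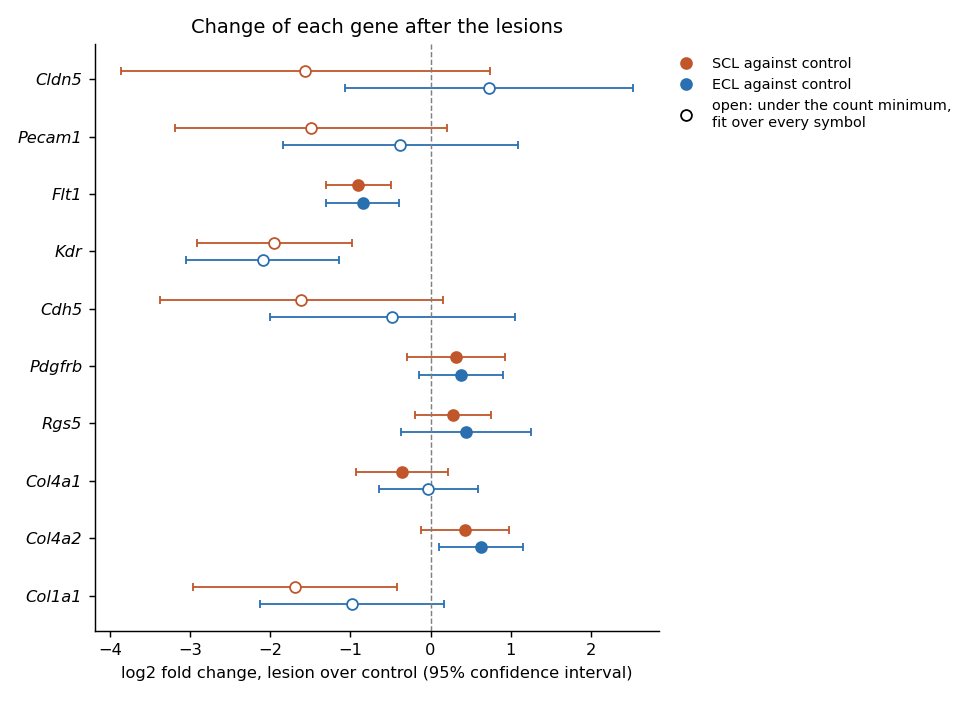
Log2 fold change of each gene after SCL (orange) and ECL (blue) over control, with the 95% confidence interval as a bar. Filled points are from the main test and open points from the fit over every symbol with a count. Flt1 and Kdr lie left of 0 with their whole intervals after both lesions, at -0.90 and -0.85 for Flt1 and -1.95 and -2.10 for Kdr.

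Flt1 was lower after either lesion. Its level was 20.5, 17.3, 16.9, 25.4 and 22.0 CPM in the controls. It was 9.38, 12.2, 9.67 and 12.2 CPM after SCL and 7.93, 12.8, 12.1 and 12.4 CPM after ECL. All 8 lesioned libraries lay below all 5 controls, in males as in females. The log2 fold change was -0.90 (SE 0.19, edgeR adjusted p = 0.00622) after SCL and -0.85 (SE 0.21, adjusted p = 0.0099) after ECL, which correspond to levels 1.87-fold and 1.80-fold lower. Groups did not overlap for 23.6% of the genes tested after SCL and 25.0% of those tested after ECL. With the replicate number as a block together with a length and GC correction, the Flt1 call was lost after both lesions (-0.66, adjusted p = 0.0510, and -0.63, adjusted p = 0.0754).

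Kdr fell after both lesions too, on fewer counts than Flt1. The controls held 1.69, 2.63, 4.23, 4.97 and 6.90 CPM, a spread of 4.08 ± 2.04 CPM (SD). After SCL the level was 0.545, 0.471, 0.627 and 2.20 CPM, and after ECL it was 0.862, 0.850, 0.938 and 0.639 CPM. Every ECL library was below every control, whereas SCL replicate 4, the male SCL culture, reached into the control range. Groups did not overlap for 13.3% of all symbols after ECL. In the fit over every symbol the log2 fold change was -1.95 (SE 0.49, adjusted p = 0.00196) after SCL and -2.10 (SE 0.49, adjusted p = 0.000415) after ECL. In a fit over genes with a mean of at least 10, chosen after the data were seen, which called 16.7% of its genes after SCL and 23.1% after ECL, the values were -2.07 (adjusted p = 0.0241) and -2.21 (adjusted p = 0.00312). With the length and GC correction and the replicate block over the same genes, also chosen after the data were seen, they were -1.80 (adjusted p = 0.0192) and -1.67 (adjusted p = 0.0154). Without SCL replicate 4 the fall after SCL was -2.65 (adjusted p = 0.000134).

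The ratio of Flt1 to Kdr within a library, which does not depend on scaling, was 3.18 to 12.1 in controls, 5.55 to 25.8 after SCL and 9.21 to 19.3 after ECL. Its mean log2 value was higher by 1.34 after SCL (exact two-sided permutation p = 0.0476, adjusted p = 0.0714 over 6 ratio tests) and by 1.30 after ECL (permutation p = 0.0317, adjusted p = 0.0635). The ranges overlapped and neither difference passed after adjustment. The smallest two-sided p this test allows with these 9 libraries is 0.0159.

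**Figure D3:**
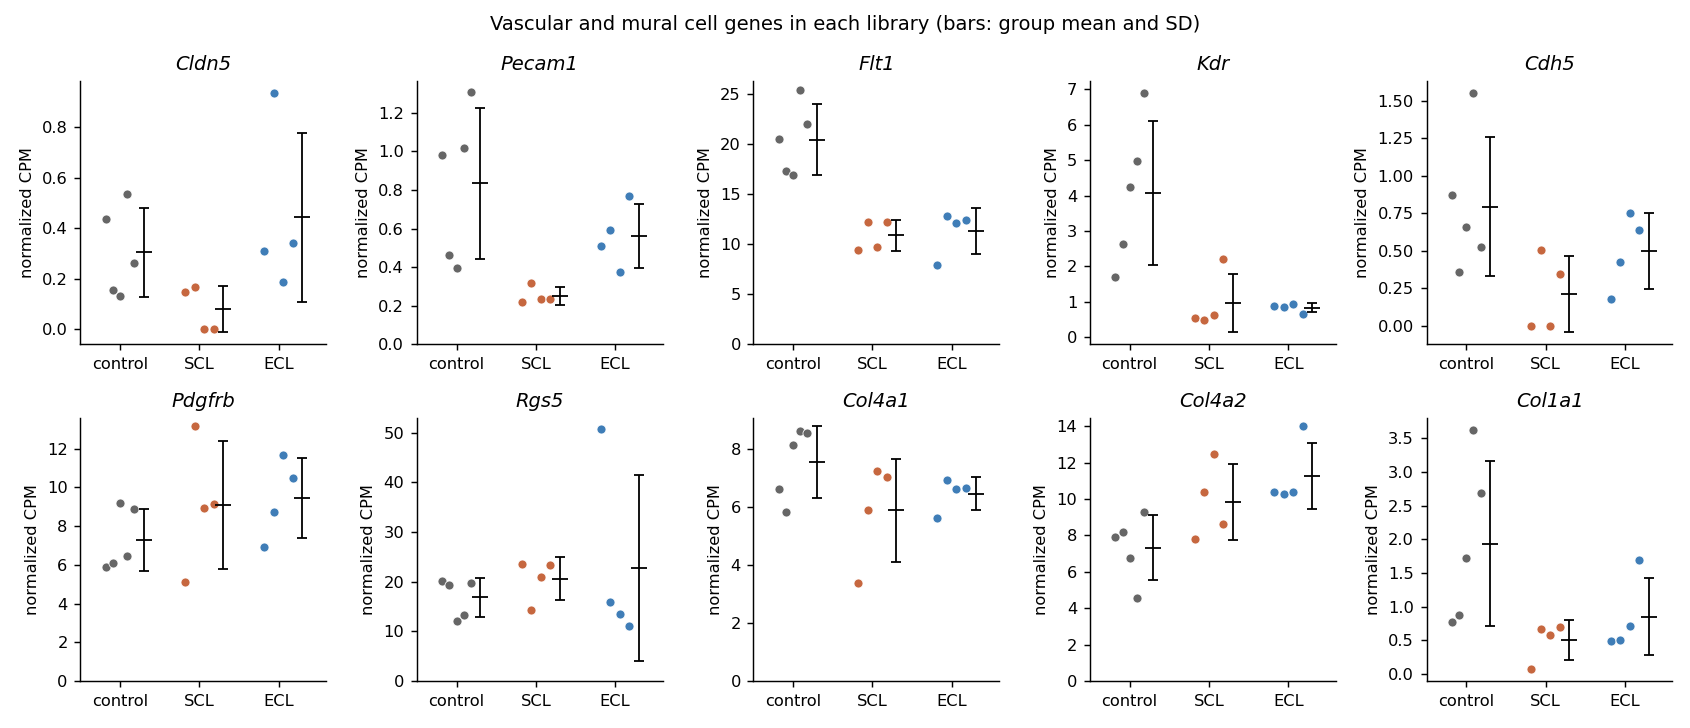
Normalized CPM of each of the 10 genes in the 5 control, 4 SCL and 4 ECL libraries, with a point per library and the group mean and SD as bars to the right. Flt1 is lower in all 8 lesioned libraries than in any control, and Rgs5 has a single ECL library at 50.7 CPM.

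The endothelial junction genes were sparse, and none passed the edgeR test. Pecam1 was 0.983, 0.464, 0.397, 1.02 and 1.31 CPM in controls and 0.218, 0.320, 0.235 and 0.232 CPM after SCL. After ECL it was 0.508, 0.595, 0.375 and 0.767 CPM. The 4 SCL libraries lay under all controls, as groups did without overlap for 10.0% of all symbols after SCL and 13.3% after ECL, yet the fit over every symbol gave -1.49 (SE 0.86, adjusted p = 0.241), and DESeq2 gave -1.64 (adjusted p = 0.0426). The ECL libraries lay within the control range or just under it (-0.38, SE 0.75, adjusted p = 0.744). Cdh5 was 0.361 to 1.55 CPM in controls. It had 0 counts in SCL replicates 1 and 3, which allows up to 0.109 and 0.0784 CPM at a limit of 3 counts, and 0.505 and 0.348 CPM in the other SCL libraries. After ECL it was 0.177, 0.425, 0.751 and 0.639 CPM. Its log2 fold changes were -1.62 (SE 0.90, adjusted p = 0.223) after SCL and -0.48 (SE 0.78, adjusted p = 0.682) after ECL.

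Cldn5 was 0.437, 0.155, 0.132, 0.534 and 0.263 CPM in controls. After SCL it was 0.145 and 0.168 CPM in replicates 1 and 2 and had 0 counts in replicates 3 and 4, which allows up to 0.0784 and 0.174 CPM. After ECL it was 0.309, 0.935, 0.188 and 0.341 CPM. All 4 ECL libraries were above all 4 SCL libraries, and both lesion groups overlapped the controls. The log2 fold changes were -1.56 (SE 1.17, adjusted p = 0.368) after SCL and 0.73 (SE 0.92, adjusted p = 0.580) after ECL. No change of Pecam1, Cdh5 or Cldn5 passed the edgeR test in this fit.

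Mural cell members did not pass the test. Pdgfrb was 5.90, 6.08, 9.19, 6.46 and 8.87 CPM in controls, 5.09, 13.2, 8.96 and 9.17 CPM after SCL and 6.94, 8.71, 11.7 and 10.5 CPM after ECL. The 3 groups overlapped, with log2 fold changes of 0.32 (95% interval -0.29 to 0.93, adjusted p = 0.425) after SCL and 0.38 (-0.15 to 0.91, adjusted p = 0.265) after ECL. Rgs5 was 20.2, 19.3, 12.0, 13.2 and 19.7 CPM in controls and 23.6, 14.3, 20.9 and 23.4 CPM after SCL (0.28, interval -0.19 to 0.76, adjusted p = 0.361). After ECL it was 50.7 CPM in replicate 1 and 16.0, 13.5 and 11.0 CPM in the others. That single culture set the direction: the log2 fold change was 0.45 (adjusted p = 0.407) with it and -0.31 (adjusted p = 0.390) without it, and the call in the fit over every symbol (0.66, adjusted p = 0.0298) included it.

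The type IV collagen chains are read from genes that start next to each other on opposite strands of chromosome 8. They gave no call in the main test, which did not hold Col4a1 after ECL, and none as a ratio. Col4a1 (chr8:11198423-11312826, minus strand) and Col4a2 (chr8:11312805-11449287, plus strand) overlap by 22 exon bases, and counting was unstranded, so reads there cannot be told apart. Col4a1 was 6.61, 5.82, 8.13, 8.60 and 8.54 CPM in controls, 3.38, 5.89, 7.24 and 7.02 CPM after SCL, and 5.61, 6.93, 6.62 and 6.65 CPM after ECL. The groups overlapped, and the log2 fold change was -0.36 (SE 0.27, adjusted p = 0.341) after SCL and -0.03 (SE 0.31, adjusted p = 0.966, fit over every symbol) after ECL. These 2 values are from fits of different scaling. In the fit over every symbol the SCL value was -0.15 (SE 0.32, edgeR adjusted p = 0.777). Col4a2 was 7.92, 8.19, 6.74, 4.54 and 9.27 CPM in controls, 7.82, 10.4, 12.5 and 8.64 CPM after SCL, and 10.4, 10.3, 10.4 and 14.0 CPM after ECL. All 4 ECL libraries were above all controls, as groups did not overlap for 25.0% of the genes tested after ECL. The log2 fold change of Col4a2 was 0.63 (SE 0.25, adjusted p = 0.0701) after ECL and 0.43 (SE 0.25, adjusted p = 0.229) after SCL. The ECL value passed in 4 of 20 alternatives: DESeq2 (0.63, adjusted p = 0.0484), the fit over every symbol (0.79, adjusted p = 0.0358), scaling over all symbols (0.79, adjusted p = 0.0370), and the replicate block with the length and GC correction (0.81, adjusted p = 0.0268).

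Within each library the ratio of Col4a1 to Col4a2 was 0.834, 0.711, 1.21, 1.89 and 0.922 in controls. It was 0.433, 0.564, 0.578 and 0.812 after SCL and 0.540, 0.671, 0.638 and 0.474 after ECL. All ECL libraries lay under all controls, and SCL replicate 4 overlapped them. The mean log2 ratio differed from that of the controls by -0.846 after SCL (exact two-sided permutation p = 0.0317, adjusted p = 0.0635) and by -0.861 after ECL (permutation p = 0.0159, adjusted p = 0.0635), and neither passed after adjustment over the 6 tests. The unadjusted ECL value is the smallest p the test allows with these libraries. Between ECL and SCL the ratio differed by -0.0155 (permutation p = 0.943).

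**Figure D4:**
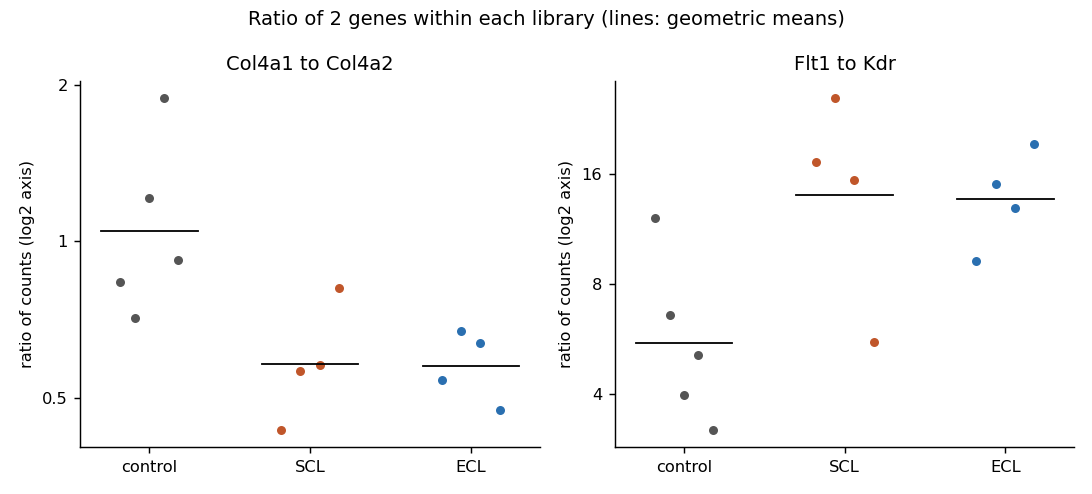
Ratio of counts of Col4a1 to Col4a2 (left) and of Flt1 to Kdr (right) in each library, on log2 axes, with group geometric means as lines. The Col4a1 to Col4a2 ratio is 0.474 to 0.671 after ECL and 0.711 to 1.89 in controls. The Flt1 to Kdr ratio is higher on average after both lesions, with overlapping points.

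Col1a1, the fibrillar member, was 0.765, 0.876, 1.72, 3.63 and 2.69 CPM in controls. It was 0.0727, 0.673, 0.575 and 0.696 CPM after SCL and 0.486, 0.510, 0.704 and 1.70 CPM after ECL. All SCL libraries were under all controls, while ECL replicate 4 lay in the control range. Groups did not overlap for 10.0% of all symbols after SCL. The fit over every symbol gave -1.70 (SE 0.65, adjusted p = 0.0696) after SCL and -0.98 (SE 0.59, adjusted p = 0.225) after ECL. The SCL value passed in 5 of 18 alternatives, among them DESeq2 (-1.88, adjusted p = 0.0166) and the fits without control replicate 1 (adjusted p = 0.0462) or control replicate 2 (adjusted p = 0.0386).

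Between the lesions no member was called. ECL against SCL gave 0 of 12232 genes by edgeR (0%), with 897 at an unadjusted p under 0.05 and 62 called by DESeq2, and 0.491% of symbols in the fit over every symbol. For Flt1 the ECL level over the SCL level was a log2 difference of 0.06 (95% interval -0.38 to 0.51), and for Kdr, in the fit over every symbol, -0.12 (-1.08 to 0.83). Cldn5 had the widest gap between lesions, 2.30 (interval 0.60 to 4.00, adjusted p = 0.433), on 14 counts over the SCL group and 48 over the ECL group. Its groups did not overlap, and neither did those of Pecam1 (1.14, interval -0.185 to 2.45, adjusted p = 0.699), which held for 2.73% of all symbols.

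Vegfa, the VEGF-A gene, fell after both lesions. In a list of 28 genes of VEGF, angiopoietin, PDGF and Notch signalling, 16 were tested in each comparison, and 5 were called lower and none higher after each lesion, against 11.5% of all tested genes called lower after SCL and 12.5% after ECL. All calls in either direction made up 24.9% and 27.8% of the genes tested. The list median was -0.27 after SCL against 0.01 over all tested genes, and -0.23 after ECL against -0.01. Vegfa was 41.6, 54.8, 49.3, 46.0 and 43.5 CPM in controls. It was 11.2, 19.6, 11.2 and 31.0 CPM after SCL and 10.8, 12.8, 20.1 and 15.2 CPM after ECL. All lesioned libraries were below all controls, with log2 fold changes of -1.37 (SE 0.27, adjusted p = 0.00522) after SCL and -1.67 (SE 0.19, adjusted p = 0.00012) after ECL. Groups did not overlap for 23.6% of the genes tested after SCL and 25.0% after ECL. Pdgfa, which encodes a ligand of PDGF receptors of glial progenitors, fell by 0.75 (adjusted p = 0.00703) and 0.97 on the log2 scale (adjusted p = 0.000913). Jag1, a Notch ligand, fell by 1.42 (adjusted p = 0.025) after SCL and fell by 2.24 (adjusted p = 0.00122) after ECL. The SCL call of Jag1 was lost in 4 of 20 alternatives, which were the fits without control replicate 5 or without SCL replicate 1, 2 or 3. Vegfd, a ligand of VEGF receptors of lymphatic vessels, fell by 0.94 after SCL (adjusted p = 0.0114), and after ECL the difference was -0.0094 (adjusted p = 0.978). The other ligands of Flt1 were not lower on average: Vegfb was 26.7 ± 4.3 CPM in controls, 27.8 ± 3.5 after SCL and 26.8 ± 5.35 after ECL, and Pgf was 4.78 ± 1.9, 6.80 ± 0.991 and 8.04 ± 1.46 CPM. The co-receptor Nrp1 was 102 ± 16.2 CPM in controls, 93.6 ± 7.19 after SCL and 97.0 ± 18.8 after ECL.

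**Figure D5:**
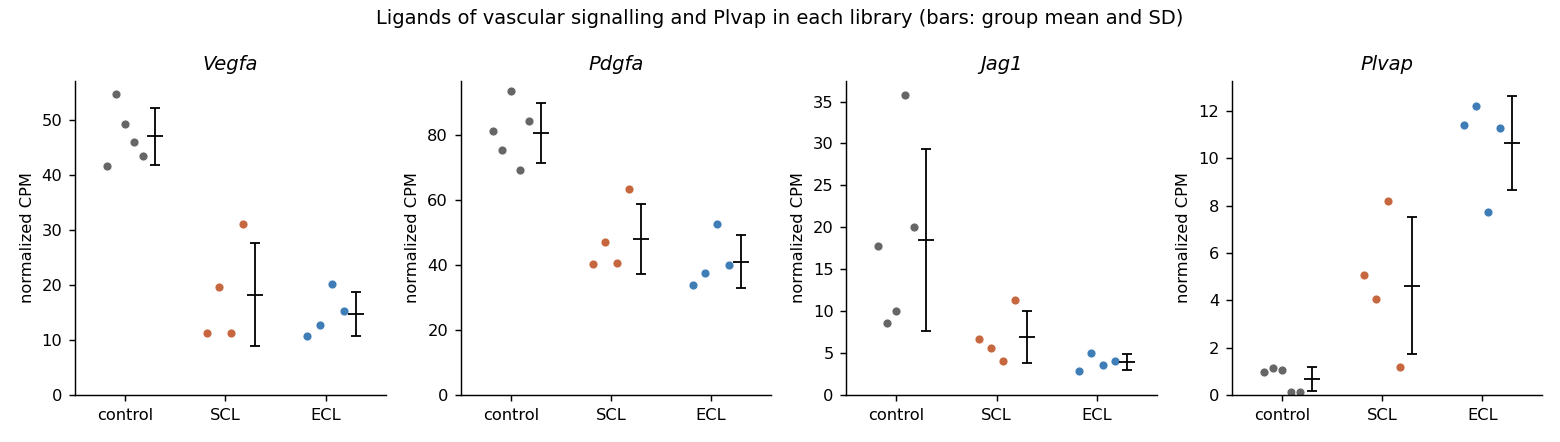
Normalized CPM of Vegfa, Pdgfa, Jag1 and Plvap in the 5 control, 4 SCL and 4 ECL libraries, with the group mean and SD as bars. Vegfa and Pdgfa are lower in all 8 lesioned libraries than in any control, and Plvap is 7.74 to 12.2 CPM after ECL against 0.107 to 1.13 CPM in controls.

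Other endothelial genes were called no more often than all genes after SCL and about as often after ECL. Of 34 such genes, 10 were tested in each lesion comparison, where 24.9% of all genes were called after SCL and 27.8% after ECL. Of the 34, 8 stayed under 1 CPM in every library (Tie1, Ly6c1, Erg, Sox17, Sox18, Icam2, Robo4 and Mmrn2). After SCL only Slco1c1, a thyroid hormone transporter also made by astrocytes, was called, and it was higher (0.64, adjusted p = 0.0466), a call lost in 10 of 20 alternatives. After ECL 3 were called higher and none lower: Itm2a (0.93, adjusted p = 0.0096), Ramp2, which escorts the adrenomedullin receptor (0.93, adjusted p = 0.0192), and Slc2a1, the glucose transporter GLUT1 of endothelium and astrocytes (0.57, adjusted p = 0.0197). Each of the 3 lost its call in 2 alternatives. The medians over the tested genes were 0.26 and 0.37. With a mean of at least 10, 26 were tested. SCL then had 2 higher calls and no lower one, and ECL had 5 higher calls and 1 lower.

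Plvap and Vwf were singled out after their values had been seen. Both were under the minimum of 150 in the lesion comparisons with control. Plvap, which forms the diaphragms of fenestrated endothelium and is low at a mature brain barrier, was 0.983, 1.13, 1.06, 0.107 and 0.131 CPM in controls, 5.09, 4.04, 8.20 and 1.16 CPM after SCL, and 11.4, 12.2, 7.74 and 11.3 CPM after ECL. All lesioned libraries were above all controls, SCL replicate 4 barely so, on 2 to 22 counts per control. Groups did not overlap for 10.0% of all symbols after SCL and 13.3% after ECL. The fit over every symbol gave 2.96 (adjusted p = 2.1e-07) after SCL and 4.13 (adjusted p = 6.45e-24) after ECL, and with a mean of at least 10 the adjusted p-values were 0.0141 and 0.000163. ECL exceeded SCL by 1.20 (adjusted p = 0.582), which passed only in the fit over every symbol (1.19, adjusted p = 0.000663). Vwf, the endothelial clotting factor, was 4.92 ± 1.61 CPM in controls, 2.48 ± 1.21 after SCL and 2.13 ± 0.782 after ECL (-0.78, adjusted p = 0.184, and -1.002, adjusted p = 0.0711, in the fit over every symbol). The Vwf value passed after SCL under DESeq2 alone of 18 alternatives (-0.94, adjusted p = 0.0446) and after ECL in 5 of 18, with the lowest adjusted p under DESeq2 (-1.15, adjusted p = 0.0045).

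All main-test calls among partners of the mural and matrix members were lower, but a fit over more genes also gave higher calls of pericyte and smooth muscle genes. Of all genes tested, 11.5% were called lower after SCL and 12.5% after ECL. Of 17 further pericyte and smooth muscle genes 3 were tested, and Foxc1, a transcription factor of pericytes and meninges, fell after SCL (-0.72, adjusted p = 0.0201, lost in 5 of 20 alternatives). Kcnj8, Higd1b and Tagln of these 17 stayed under 1 CPM in every library. With a mean of at least 10, 2 of 13 were called higher and 1 lower after SCL. After ECL 2 of 12 were called higher and 3 lower in that fit. It called 16.7% of its genes after SCL and 23.1% after ECL. Among 17 fibroblast and fibrillar collagen genes, none of 9 was called after SCL and 1 of 8 after ECL, Col5a1 (-0.71, adjusted p = 0.0322, lost in 12 of 20 alternatives). Of 18 basement membrane genes 9 were tested. The laminin chains Lamb1 (-0.67, adjusted p = 0.0326), Lamb2 (-0.63, adjusted p = 0.0330) and Lamc1 (-0.56, adjusted p = 0.0402) fell after SCL, and Lamb1 (-0.69, adjusted p = 0.0210) and Lamb2 (-0.85, adjusted p = 0.00932) fell after ECL. None of these 9 was called higher, and their median log2 fold change was -0.40 after SCL and -0.48 after ECL. With a mean of at least 10, 0 of 18 were called lower after SCL and 3 of 18 after ECL. The laminin calls after SCL were lost in 9, 10 and 13 of 20 alternatives, and that of Lamb1 after ECL in 6.

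Genes that process collagen moved in both directions. Of 17, 12 were tested, with 3 higher and 2 lower after each lesion. Calls in either direction made up 24.9% of all genes tested after SCL and 27.8% after ECL. P4ha3, a catalytic chain of prolyl 4-hydroxylase, rose by 0.96 (adjusted p = 0.00681) after SCL and 0.92 (adjusted p = 0.0087) after ECL, while the sister chain P4ha2 fell by 0.98 (adjusted p = 0.00481) and 0.60 (adjusted p = 0.0450, lost in 11 of 20 alternatives). The shared chain P4hb and the lysyl hydroxylase Plod1 rose after both, by 0.44 (adjusted p = 0.0332) and 0.80 (adjusted p = 0.0170) after SCL and by 0.57 (adjusted p = 0.0178) and 0.75 (adjusted p = 0.0149) after ECL. The P4hb calls were lost in 7 and 4 of 20 alternatives. Of 11 genes of the Wnt pathway that maintains the barrier, 2 of 5 tested were higher after SCL, the ligand Ndp (0.88, adjusted p = 0.0381) and the co-activator Tspan12 (1.46, adjusted p = 0.0246), which microglia and other cells also express, and none of 4 by edgeR after ECL. The Tspan12 call was lost in 4 of 20 alternatives, 2 of them without SCL replicate 1 (0.68, adjusted p = 0.101) or control replicate 3, and the Ndp call was lost in 10 of 20 alternatives.

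Among markers of other cell types, the summed levels of microglia and perivascular macrophage markers lay above all controls after both lesions. Of all genes in the main test, 24.9% were called after SCL and 27.8% after ECL. Summed microglia markers were 567 to 681 CPM in controls, 1140 to 2390 after SCL and 1310 to 1700 after ECL, with 12 of 12 called higher after SCL and 8 of 12 after ECL. Perivascular macrophage markers summed to 22.8 to 38.6, 53.2 to 82.3 and 40.9 to 62.3 CPM, in the same order, a sum made up mostly of F13a1 and Pf4. Of these 5 markers 2 were called higher after SCL (F13a1 and Pf4) and 1 after ECL (F13a1), whereas Mrc1 was 3.65, 2.45 and 2.28 CPM on average, and the median of the 5 with a mean of at least 10 was -0.49 after SCL and -0.58 after ECL. Astrocyte markers summed to 7780 to 12800, 9640 to 13300 and 8930 to 11800 CPM, with 4 and 3 of 8 called higher, and neuron markers to 3090 to 3770, 2670 to 3780 and 2750 to 4110 CPM, with 2 and 3 of 8 called lower. Oligodendrocyte lineage markers were 3310 to 5200 CPM over all libraries, with 2 of 9 called higher after each lesion. Red blood cell markers stayed at 0.481 to 2.13 CPM, with both alpha and both beta globins under 1 CPM in every library. Choroid plexus and ependymal markers were 5.16 to 57.3 CPM, and Ttr was under 1 CPM throughout. Cell cycle genes summed to 52.6 to 105, 206 to 245 and 82.5 to 179 CPM, with 8 of 9 tested called higher after SCL and 2 of 5 after ECL. In the fit over genes with a mean of at least 10, 9 of 12 and 6 of 12 were called higher. That fit called 16.7% of its genes after SCL and 23.1% after ECL. Mki67 was not called in the main test (0.54, adjusted p = 0.142, after SCL and -0.05, adjusted p = 0.929, after ECL). In the main test 1 of 6 CA1 markers was lower after SCL and none was called after ECL. The part of these shifts in the values of Flt1, Kdr, Vegfa and Plvap was not tested. In tissue RNA, fewer cells of a type and less RNA per cell cannot be told apart.

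Across all 13 libraries, after the group means had been removed, the genes whose log2 levels ran most like the mean of the 5 endothelial members were Itsn2 (Pearson r = 0.947), Jade1 (0.934), Qtrt2 (0.933), Gm13488 (0.931) and Ap1g1 (0.929), out of 11934 ranked. For the 3 collagen members they were Fkbp15 (0.897), Myh9 (0.868), Phactr4 (0.867), 2610037D02Rik (0.860) and Pou2f1 (0.859). These are the top values of many, the points share libraries and depth, and no p is given.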

How the data were processed

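According to the study's methods and the processing notes, the authors trimmed reads with cutadapt 3.5, mapped paired-end reads with STAR 2.7.8a to mm10 (GRCm38) and counted them per GENCODE M25 gene, unstranded, with featureCounts 2.0.1. The deposited values are raw whole-number counts per symbol for 13 libraries. Library preparation amplified little RNA by PCR without molecular identifiers, so limits from counts cover counting error only. Column headings number the cultures differently from the titles, and groups and replicate numbers were taken from the titles.

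Pairwise edgeR 4.0.16 fits (R 4.3.3; glmQLFit, glmQLFTest; two-sided; Benjamini-Hochberg over all genes tested; threshold 0.05) used genes whose mean normalized count reached 150 and TMM factors over those genes. SE was derived from the fold change and the F statistic (log2 change over root F, unsigned). CPM uses TMM factors over all 13 libraries. Exon lengths and coordinates came from GENCODE M21 on GRCm38, which held all 10 genes. Ratios were tested by exact permutation in SciPy 1.17.1. The likeness ranking used log2(CPM + 0.5). Alternatives were DESeq2 1.42.0, other scalings and filters, a replicate block, a length and GC offset (mgcv 1.9.3), a sex term, halved counts and leaving out each library. The code was tested on simulated data.

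Named genes were the 10 members, up to 3 called genes with the smallest adjusted p per list and lesion, the first gene of each list of other cell types, and the 5 most similar genes; not all are printed. The members and lists were chosen with earlier results of these data known.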

Additional observations from a re-analysis of the deposited data

Results flagged for a closer look

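Of 36 sets of 4 or 5 libraries checked (10 genes and 2 ratios in 3 groups), 5 held a library far from the rest of its group, where chance flags about 5% of sets. Rgs5 was 50.7 CPM in ECL replicate 1, the deepest ECL library and the only female one, against 11.0 to 16.0 CPM in the other ECL libraries. Flt1 was lowest in the same culture, 7.93 CPM against 12.1 to 12.8 CPM in the others. Kdr was 2.20 CPM in SCL replicate 4, against 0.471 to 0.627 CPM in the other SCL libraries, and Vegfa was also highest there (31.0 CPM). Col4a2 was 14.0 CPM in ECL replicate 4, against 10.3 to 10.4 CPM. Pecam1 was 0.320 CPM in SCL replicate 2, the deepest library, on 19 counts, against 0.218 to 0.235 CPM on 4 to 9 counts. What sets these cultures apart was not tested.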

How the results depend on the processing

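Flt1 kept its direction in all 20 alternatives of each lesion comparison and its call in 19, and Kdr kept both in all 18, where the length and GC offset was run over genes with a mean of at least 10, a choice made after the data were seen. Of 71 calls of named genes, 35 held in every alternative and none changed sign. The replicate block with the length and GC offset ended the Flt1 call, leaving 0 of the 5 tested members called after SCL and 1 of 4, Col4a2, after ECL. Of those 4, DESeq2 and TMM factors over all symbols called 2 after ECL, and the fit over every symbol called 3 as well as Kdr, which the main test did not hold. The higher share of called genes was 53.5% after SCL and 54.8% after ECL, but 80.8% and 77.8% with TMM factors over all symbols, 64.0% and 62.8% with DESeq2 size factors, and 44.0% and 47.0% with the length and GC offset. All genes called numbered 2843 after SCL, 5390 over every symbol, 1802 with the block and offset, and 1675 to 2799 without a library (lowest without SCL replicate 3). After ECL they numbered 3115, 8034 over every symbol and 4887 with a mean of at least 10, the last chosen after the data were seen. ECL against SCL gave 0, but 62 by DESeq2, 217 over every symbol, 1 with all 13 libraries in the fit, 1 with a sex term, and 0 to 54 without a library (54 without SCL replicate 3, 2 without ECL replicate 4). The cause of these differences was not tested.

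Same-numbered cultures did not deviate together: correlations were -0.145 to 0.533, and 2 of 8 libraries were closest to their own number in each comparison. The replicate block alone gave 2340 calls after SCL and 2664 after ECL.

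Signs turned only in differences that had not passed. Over fits without a library, Rgs5 after ECL ran from -0.31 (without ECL replicate 1) to 0.68, and Col4a1 from -0.114 to 0.0492, with 0.0536 under the replicate block and 0.0367 with a sex term. In ECL against SCL, fits without a library ran from -7.22e-08 to 0.21 for Flt1, -0.36 to 0.58 for Kdr, -0.14 to 0.29 for Pdgfrb, -0.59 to 0.39 for Rgs5, -0.0449 to 0.26 for Col4a1 and -0.47 to 0.0875 for Vwf. A sex term turned Flt1 (-0.19), Pdgfrb (-0.12) and Col4a1 (-0.0165). The replicate block turned Kdr (0.11, and 0.133 with the offset) and Rgs5 (-0.10, and -0.0472 with the offset). Without a library, the log2 ratio difference between lesions ran from -0.158 to 0.145 for Col4a1 to Col4a2 and from -0.479 to 0.260 for Flt1 to Kdr. Against control, the Col4a1 to Col4a2 difference stayed within -1.01 to -0.63 after either lesion, and no ratio passed in any alternative. Without a library of a lesion, the permutation test had too few arrangements for a ratio of that lesion to pass, so those alternatives cannot decide.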
